A study of Mus musculus with 11 samples.

Results

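Coro2a, Gsta4, Capg, Swap70, Plagl1, Ecm1, Izumo1r and Cd83 are 8 genes of the transcript signature of regulatory T cells that have been studied less than Foxp3, Il2ra or Ctla4. They were chosen by name from genes already seen to be high in the Treg arrays of this series, and their values were taken from the 12 probe sets that carry their symbols among 34945 probe sets with 1 symbol. Each gene is represented by the probe set with the highest mean over all 11 arrays, so that the 8 genes stand among 18193 measured genes. T cells of mouse spleen and lymph node were enriched with beads against CD4 and sorted on GFP by a double sort, and RNA of each sample was hybridised to 1 Affymetrix array. The group TN (3 arrays) held naive Foxp3-negative CD4+ T cells, and the group Treg (5 arrays) held Foxp3-positive CD4+ T cells. The group GFPKO (3 arrays) held GFP+ CD4+ T cells of Foxp3GFPKO/WT mice, which carry a wild-type allele of Foxp3 beside the GFPKO allele. The mice of every group were 6 to 8 weeks old. The labels give no strain or genotype for the TN and Treg mice. Since they do not tie the replicates to different animals, errors and p-values here cover the scatter among samples and no more, and that scatter may be technical.

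Regulatory T cells restrain other immune cells, and the transcription factor Foxp3, encoded on the X chromosome, is needed for that function. In females with 1 null allele, X inactivation leaves cells that express only the null allele beside normal regulatory T cells, and a GFP reporter in the null allele marks them. This is background on the model; Foxp3 protein was not measured here.

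The labels were checked first. The only Foxp3 probe set read 3.99, 3.33 and 3.12 on the log2 scale in TN, between 3.29 and 3.64 in the arrays labelled Treg, and 6.75, 7.19 and 6.86 in GFPKO. The low Treg values go against that label. The position of the probe set in the GFP alleles is unknown here, so "Treg" below means the arrays labelled Treg, and every direction rests on that label. Il2ra read 3.56 in TN, 9.18 in the arrays labelled Treg and 8.41 in GFPKO, and Ctla4 read 5.81, 10.16 and 9.66. Xist, the RNA of the inactive X chromosome, read 11.34 in GFPKO and at most 3.78 on average in the other groups, so sex and Foxp3 genotype cannot be told apart in any comparison with GFPKO. The CD4 T cell markers Cd3e (10.74, 10.72 and 10.87 in TN, Treg and GFPKO) and Cd4 (8.03, 7.69 and 8.11) were high in all groups. The GFPKO arrays resembled each other least: correlations across genes ran from 0.979 to 0.990 within GFPKO, against at least 0.994 within TN and 0.990 within Treg. The 3′ minus 5′ signal of the actin control, a measure of RNA integrity, was 0.770 and 0.832 in GFPKO replicates 1 and 2, above every TN and Treg array (at most 0.611), and 0.451 in replicate 3. For each of the 8 genes a value with GFPKO arrays left out is therefore given as well. In a bulk sample fewer cells of a type and less RNA per cell cannot be told apart.

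All 8 genes were higher in the arrays labelled Treg than in TN, on which they were chosen, and all 8 were also higher in GFPKO than in TN, but by unequal shares of the Treg difference. GFPKO kept nearly the whole difference for the glutathione transferase gene Gsta4 (97.1%) and the coronin gene Coro2a (95.2%). It kept 83.4% for Ecm1, 77.5% for Capg, 66.6% for Plagl1 and 63.0% for Swap70. It kept 48.4% for the surface protein gene Izumo1r and 36.6% for Cd83, another surface protein gene. The share is the GFPKO minus TN difference over the Treg minus TN difference on the log2 scale, and its 95% interval was computed with Fieller's method from the limma fit. Each Treg array lay above each TN array for 8 of 8 genes (11.7% of all genes; 7.84% had each Treg array below each TN array), and each GFPKO array lay above each TN array for 8 of 8 (7.06% of all genes; 11% the other way). In the limma fit 8 of 8 were called higher in Treg than in TN (6.54% of all genes) and 8 of 8 higher in GFPKO than in TN (2.64%). Since the genes were chosen with these contrasts in view, nothing is read from those counts. Both contrasts share the TN arrays.

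**Figure D1:**
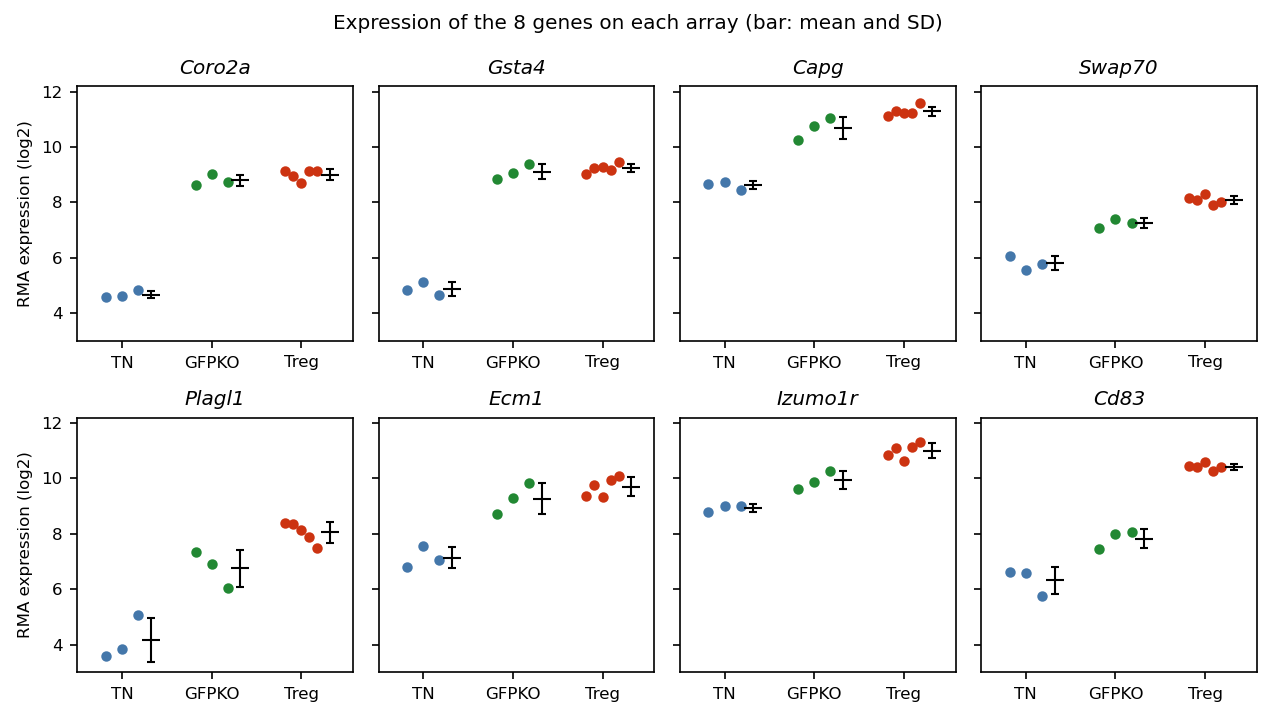
RMA expression on the log2 scale (vertical axis) of Coro2a, Gsta4, Capg, Swap70, Plagl1, Ecm1, Izumo1r and Cd83 on each TN, GFPKO and Treg array; a point is 1 array and the black bar gives the mean and SD of the group. GFPKO lies at the level of Treg for Coro2a and Gsta4, and nearer to TN for Cd83.

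The comparison of Treg with GFPKO was the only one tested for these genes, although it shares the Treg arrays with the comparison that chose them. It also equals Treg minus TN less GFPKO minus TN, both of which were in view at that choice. Its calls and p-values, here and for each gene below, are therefore not independent of the choice. In limma, 5 of 8 genes were called higher in Treg than in GFPKO (Capg, Swap70, Plagl1, Izumo1r and Cd83) and none lower, against 6.88% of all genes called higher. In the same 5 genes each Treg array lay above each GFPKO array, as in 11.1% of all genes; in 0 of 8 did each lie below, against 3.31%. The nearer background is the 496 genes called at least 2-fold higher in Treg than in TN. Of these 67.3% were called higher in Treg than in GFPKO, so the 5 of 8 are no more than such genes give.

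**Figure D2:**
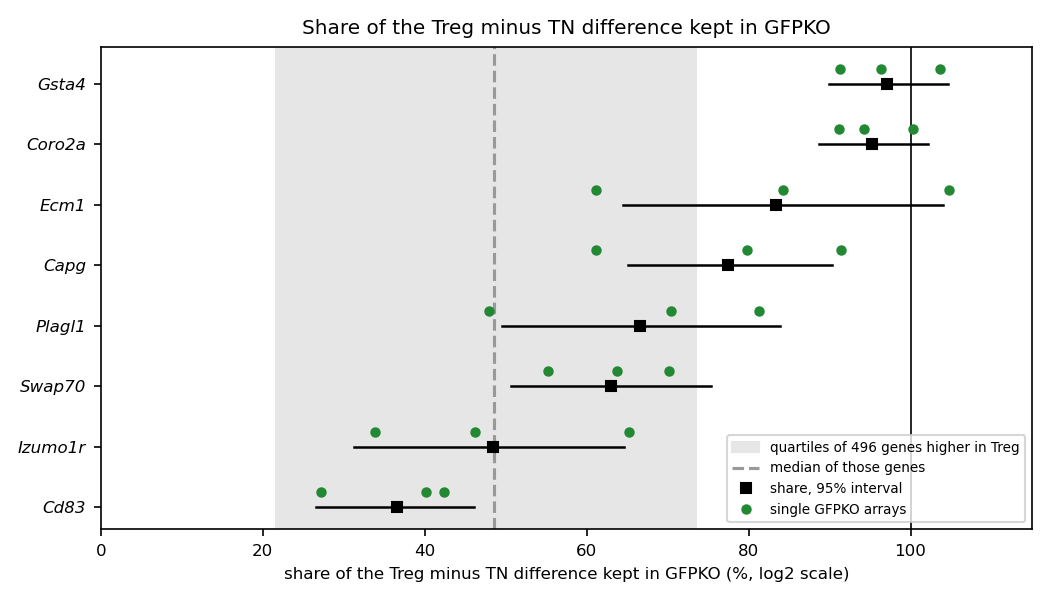
Share of the Treg minus TN difference kept in GFPKO (horizontal axis, percent on the log2 scale) for each gene; squares and lines give the share and its 95% interval, green points the share from each GFPKO array alone. The grey band and dashed line are the quartiles (21.6% and 73.5%) and median (48.6%) of 496 genes called at least 2-fold higher in Treg than in TN, and the line at 100 marks the full Treg level.

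Among the genes whose proteins act on the actin cytoskeleton, Coro2a showed the fullest level in GFPKO. Coro2a encodes a coronin, a WD-repeat protein that also occurs in a nuclear receptor corepressor complex. It read 4.58, 4.62 and 4.83 in TN, 9.12, 8.94, 8.68, 9.12 and 9.12 in the arrays labelled Treg, and 8.62, 9.01 and 8.75 in GFPKO. All GFPKO values were far above TN, and they overlapped with Treg. The mean rose from 4.67 ± 0.13 in TN (SD, n = 3) to 8.996 ± 0.19 in Treg (n = 5), a 20.0-fold difference, and was 8.79 ± 0.20 in GFPKO (n = 3). Treg minus GFPKO was 0.21 ± 0.14 (SE) on the log2 scale, with a 95% interval from -0.090 to 0.50 (limma adjusted p = 0.414). The share kept was 95.2% (95% interval 88.6% to 102%), 92.7% to 97.2% with any 1 GFPKO array left out, and 94.2% with replicate 3 as the only GFPKO array. The small difference itself moved to 0.12 without GFPKO replicate 1 and to 0.31 without replicate 2 (limma adjusted p = 0.755 and 0.273), and to -0.028 with arrays weighted by their fit (adjusted p = 0.857).

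Capg encodes a gelsolin-related protein that caps the growing ends of actin filaments and is abundant in macrophages. It read 8.67, 8.73 and 8.45 in TN, 11.12, 11.29, 11.22, 11.24 and 11.57 in the arrays labelled Treg, and 10.25, 10.75 and 11.06 in GFPKO. GFPKO lay between the groups, with replicate 3 just 0.058 below the lowest Treg array. Treg exceeded GFPKO by 0.60 ± 0.17 on the log2 scale, or 1.52-fold (limma adjusted p = 0.0340), and the share kept was 77.5% (65.1% to 90.4%). The call was lost in limma without Treg replicate 2, 3, 4 or 5 (adjusted p 0.0603 to 0.0802), without GFPKO replicate 1 (difference 0.38, adjusted p = 0.174) or replicate 2 (adjusted p = 0.0813). It was also lost with GFPKO replicate 3 as the only GFPKO array (difference 0.23, adjusted p = 0.646), where the share was 91.5%, and with the actin difference as a covariate (0.41, adjusted p = 0.290). A dimmer Capg probe set read 3.30 in TN, 4.86 in Treg and 4.31 in GFPKO on average and gave a share of 64.5% (45.0% to 84.3%).

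Swap70 encodes a protein that binds phosphoinositides, works with Rac and actin, and was first found in B cells. By its brightest probe set it read 6.08, 5.56 and 5.79 in TN, 8.16, 8.07, 8.31, 7.92 and 8.03 in the arrays labelled Treg, and 7.07, 7.41 and 7.27 in GFPKO. No 2 groups overlapped, and GFPKO stood between the others. Treg exceeded TN 4.89-fold and GFPKO exceeded TN 2.72-fold. Between Treg and GFPKO the difference was 0.85 ± 0.14 (limma adjusted p = 0.0013), and the share kept was 63.0% (50.7% to 75.3%), 59.4% to 66.9% with any 1 GFPKO array left out, and 63.7% with replicate 3 as the only GFPKO array. The other Swap70 probe set read 4.58, 4.73 and 3.98 in TN, 7.42, 7.44, 7.65, 7.39 and 7.35 in Treg, and 6.35, 6.71 and 6.38 in GFPKO. It gave nearly the same share, 67.9% (57.1% to 78.7%), and a Treg minus GFPKO difference of 0.97 ± 0.16 (limma adjusted p = 0.0022 over 34945 probe sets). Both Swap70 probe sets were measured on the same arrays and are not independent replicates.

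The promoter of Swap70 is shown because it was the only member window with the core forkhead motif, the type of sequence that Foxp3 and other forkhead factors bind. RefSeq promoter windows (GRCm38.p6, 250 bases before to 50 after a start) were found for 6 of the 8 genes, with 7 windows because Coro2a has 2 starts. Gsta4 and Cd83 had no window in the table. The motif TGTTTAC, or GTAAACA on the other strand, was in 1 of 7 windows, against 3.65% of 32851 windows of this length. It lies at -107 to -101 from the start of Swap70, in the window chr7:110221453-110221752 on the + strand, and is set in capitals:
Swap70: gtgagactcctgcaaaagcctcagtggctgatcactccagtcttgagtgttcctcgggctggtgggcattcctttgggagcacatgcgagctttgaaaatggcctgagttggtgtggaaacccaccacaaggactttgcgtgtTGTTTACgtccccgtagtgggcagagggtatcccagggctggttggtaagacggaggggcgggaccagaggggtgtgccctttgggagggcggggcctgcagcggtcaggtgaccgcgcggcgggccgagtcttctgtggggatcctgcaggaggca
The window of Ecm1, chr3:95739520-95739819 on the - strand, is shown because it held the only AP-1 motif (TGANTCA, the same on both strands, in 7.81% of windows), at -64 to -58 and also in capitals:
Ecm1: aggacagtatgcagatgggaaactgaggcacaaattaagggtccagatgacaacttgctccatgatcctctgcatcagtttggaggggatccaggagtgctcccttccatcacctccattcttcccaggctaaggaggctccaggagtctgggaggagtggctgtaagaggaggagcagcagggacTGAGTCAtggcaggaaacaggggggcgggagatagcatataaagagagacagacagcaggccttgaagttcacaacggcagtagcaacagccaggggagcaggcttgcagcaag
The Runx motif TGTGGTT, or AACCACA on the other strand, was in 0 of 7 windows (5.27% of all windows), and the kappaB motif in 0 of 7 (1.63%). The NFAT motif TGGAAA, or TTTCCA, was in 3 of 7 (21.4%), in a window each of Coro2a, Swap70 and Izumo1r. None of these motifs overlapped another in the member windows. A match is a description of the letters, and binding was not measured here.

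Gsta4, the only enzyme among the 8 genes, encodes an alpha-class glutathione transferase that detoxifies aldehydes formed by lipid peroxidation. It read 4.83, 5.14 and 4.65 in TN, 9.03, 9.26, 9.26, 9.17 and 9.46 in the arrays labelled Treg, and 8.86, 9.07 and 9.39 in GFPKO. GFPKO and Treg overlapped over most of their range, and both were far from TN. Treg exceeded TN 20.6-fold and GFPKO exceeded TN 18.8-fold. The difference of Treg from GFPKO was 0.13 ± 0.15, with a 95% interval from -0.20 to 0.45 (limma adjusted p = 0.680), and the share kept was 97.1% (89.9% to 105%). Without GFPKO replicate 1 the difference was 0.0016 and the share 99.96%, and without replicate 3 they were 0.27 and 93.8% (limma adjusted p = 0.998 and 0.253). With the actin difference as a covariate the small difference turned to -0.032 (limma adjusted p = 0.970). With GFPKO replicate 3 as the only GFPKO array it turned to -0.16 (limma adjusted p = 0.796).

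Plagl1, also known as Zac1, is the transcription factor of the set, an imprinted zinc finger gene linked to cell cycle arrest. Its brightest probe set read 3.60, 3.85 and 5.09 in TN, 8.40, 8.35, 8.15, 7.88 and 7.48 in the arrays labelled Treg, and 7.33, 6.91 and 6.04 in GFPKO. This was the widest spread of the 8 genes in each group: TN replicate 3 lay above the other TN arrays, and GFPKO replicate 3 was the lowest GFPKO array here and in no other of the 8 genes. Treg exceeded TN 14.7-fold and GFPKO 2.46-fold. Treg minus GFPKO was 1.30 ± 0.33 (limma adjusted p = 0.0219), and the share kept was 66.6% (49.5% to 83.9%). The call was lost in limma without Treg replicate 2 or 3 (adjusted p = 0.0527 and 0.0513), without GFPKO replicate 2 or 3 (0.0603 and 0.0616; difference 0.94 without replicate 3), and with the mean of the 3 Plagl1 probe sets (difference 0.50, adjusted p = 0.0930). With GFPKO replicate 3 as the only GFPKO array the difference was 2.02, and the share 47.9%.

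The other Plagl1 probe sets were dim. One read 3.54 to 3.86 in TN, 3.77 to 4.61 in Treg and 3.75 to 4.20 in GFPKO. Another read 2.02 to 2.34, 2.43 to 2.53 and 2.38 to 2.74. Neither was called between Treg and GFPKO (limma adjusted p = 0.344 and 0.715). Both lay near or below 3.99, the highest Foxp3 value in TN, which serves here as a mark of background and was chosen after its values were seen. The Plagl1 result thus rests on its brightest probe set, whose suffix _x_at marks probes that can bind related transcripts. The dimmer Capg probe set carries the same suffix, and the suffix _s_at of the Izumo1r probe set marks probes shared by several transcripts.

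Ecm1 is the gene of a secreted matrix glycoprotein that, in helper T cells, has been tied to exit from lymph nodes. It read 6.80, 7.56 and 7.05 in TN, 9.38, 9.77, 9.34, 9.94 and 10.08 in the arrays labelled Treg, and 8.71, 9.30 and 9.83 in GFPKO. GFPKO replicate 3 lay within the Treg range, and replicates 1 and 2 lay below it. Treg exceeded TN 5.92-fold and GFPKO exceeded TN 4.40-fold. Treg minus GFPKO was 0.43 ± 0.24, with a 95% interval from -0.096 to 0.95 (limma adjusted p = 0.324). The share kept was 83.4% (64.5% to 104%) and depended on the array: 61.1% from GFPKO replicate 1 alone, 84.2% from replicate 2 and 105% from replicate 3. Leaving out GFPKO replicate 1 moved the difference to 0.14, and leaving out replicate 3 moved it to 0.70, without a call in limma in either case (adjusted p over all alternatives 0.0560 to 0.912). With replicate 3 alone it was -0.12.

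Izumo1r, formerly Folr4, encodes a membrane-anchored protein of the folate receptor family that does not bind folate and that is known as the egg's receptor for sperm. It read 8.79, 9.005 and 9.02 in TN, 10.86, 11.08, 10.63, 11.13 and 11.31 in the arrays labelled Treg, and 9.64, 9.89 and 10.28 in GFPKO. No 2 groups overlapped. Treg exceeded TN 4.19-fold and GFPKO exceeded TN 2.001-fold. Treg minus GFPKO was 1.07 ± 0.17 (limma adjusted p = 8.7e-04), and the share kept was 48.4% (31.3% to 64.6%), or 40.0% to 55.7% with any 1 GFPKO array left out. With GFPKO replicate 3 as the only GFPKO array the difference was 0.72 (limma adjusted p = 0.108) and the share 65.2%.

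Cd83 had the largest Treg minus GFPKO difference of the 8 genes. It encodes an immunoglobulin-like surface protein that, on dendritic cells, keeps MHC class II and CD86 from being degraded. It read 6.62, 6.60 and 5.77 in TN, 10.44, 10.43, 10.59, 10.28 and 10.40 in the arrays labelled Treg, and 7.44, 7.98 and 8.07 in GFPKO. The lowest Treg array was 2.22 above the highest GFPKO array, and the lowest GFPKO array was 0.82 above the highest TN array. Treg exceeded TN 17.1-fold, and GFPKO exceeded TN 2.83-fold. Treg minus GFPKO was 2.60 ± 0.19, or 6.06-fold (limma adjusted p = 6.7e-07), which ranked 16 among 18193 genes. The share kept was 36.6% (26.6% to 46.0%), 33.7% to 41.3% with any 1 GFPKO array left out, and 42.4% with GFPKO replicate 3 as the only GFPKO array. The Treg arrays differed little for Cd83 (SD 0.11), which is the smallest Treg SD of the 8 genes.

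GFPKO replicate 1 read lowest of the GFPKO arrays in 7 of 8 genes and replicate 3 highest in 5 of 8, while Plagl1 ran the other way. The order of the GFPKO arrays over all genes was not counted, so this order may not be particular to the 8 genes. Replicate 1 was also 1 of the 2 arrays with a high actin difference. The other, replicate 2, read lowest of the GFPKO arrays in 0 of 8 genes and highest in 2. The part of RNA quality in these values was not tested. The 95% intervals of Coro2a and Gsta4 lay above those of Swap70, Plagl1, Izumo1r and Cd83, and that of Ecm1 overlapped with every interval except that of Cd83. Neighbours in the order of shares were not resolved from each other.

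**Figure D3:**
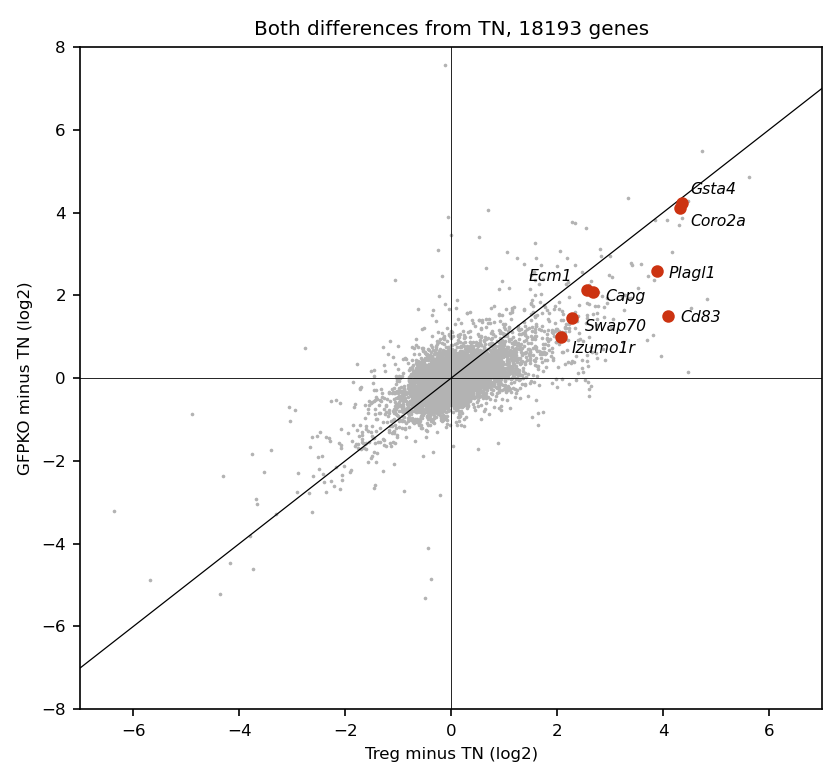
GFPKO minus TN (vertical axis, log2) against Treg minus TN (horizontal axis, log2) for 18193 genes in grey, with the 8 genes in red; the line marks equal differences, and both axes share the TN arrays. Gsta4 and Coro2a lie next to the line at differences over 4, and Cd83 lies far below it.

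Against the 496 genes called at least 2-fold higher in Treg than in TN, 6 of the 8 genes had a share above the median, and Izumo1r and Cd83 had a share below it. The median share of the 496 genes was 48.6%, with quartiles of 21.6% and 73.5%. A share of 100% or more was reached by 53 of them, and 57 lay below 0. The median of the 8 genes was 72.0%. Both contrasts in the share were in view when the 8 genes were chosen, and by Treg minus TN they ranked from 7 to 128 among 18193 genes. Nothing is therefore read from the gap between the medians. Of the 496 genes, 87.9% had a lower share than Gsta4, 87.1% than Coro2a, 81.2% than Ecm1 and 77.8% than Capg. Plagl1 stood above 70.2%, Swap70 above 67.3%, Izumo1r above 49.6% and Cd83 above 37.9%. Of 20 well known Treg genes 18 were measured, and the 17 among the 496 had a median share of 61.9%. Il10, a suppressive cytokine gene, stood at 164% and Nt5e, which encodes the ectoenzyme CD73, at 117%, so that the GFPKO mean lay above the Treg mean for both. Ikzf4, a zinc finger factor, kept 98.5% and Ctla4 88.6%, while Itgae, an integrin chain, kept 39.6%. Ebi3, a cytokine subunit gene, kept 13.3%, and Klrg1, an inhibitory receptor, 3.02%. The 8 genes thus lay inside the span of the well known ones; their difference from these was not tested.

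The share depends on the scale. On linear values, where a 2-fold change at a high level counts for more, GFPKO kept 91.8% for Gsta4, 86.0% for Coro2a, 71.8% for Ecm1, 61.2% for Capg, 44.1% for Swap70, 37.7% for Plagl1, 31.9% for Izumo1r and 11.4% for Cd83. Plagl1 and Swap70 changed places, and the other genes held theirs. The TN means of Coro2a, Gsta4 and Plagl1 (4.67, 4.87 and 4.18) lay close to the median of all probe sets on an array (4.07 to 4.16).

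The genes whose levels over the 11 arrays were most like each member were looked up among 4862 genes with a range of at least 1 log2 unit, by Pearson's r, as a description. For Coro2a these were Ikzf4 (r = 0.999), Gsta4 (0.991) and Map6 (0.988), and for Gsta4 they were Coro2a (0.991), Ikzf4 (0.990) and Map6 (0.990). Coro2a, Gsta4 and Ikzf4 thus shared the pattern of low TN with Treg and GFPKO alike. For Capg they were Trpm1 (0.995), Glipr2 (0.993) and Cish (0.992), a feedback inhibitor of cytokine signalling, and for Ecm1 Lta (0.989), a cytokine of the TNF family, Prr13 (0.989) and Cish (0.980). For Swap70 they were Dennd5a (0.992), Hopx (0.991) and Capn3 (0.986), and for Plagl1 Osbpl3 (0.967), Ybx3 (0.965) and She (0.964). For Izumo1r they were Ncf1 (0.985), Plxnd1 (0.984) and Lxn (0.983), and for Cd83 Lrig1 (0.996), Vav2 (0.988) and Penk (0.988). Lrig1 read 8.32 in TN, 10.01 in Treg and 8.90 in GFPKO, and Penk 4.86, 9.38 and 6.57. All r values come from the same 11 arrays in 3 groups.

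The relatives of the members, from lists drawn up by family and pathway, were for the most part not called. None of the other 6 coronins was called in any comparison in limma. Of 21 other glutathione transferases 3 were called higher in Treg than in TN (background 6.54%), and 6 higher and 0 lower in Treg than in GFPKO (background 6.88% and 2.55%). Gsto1, an omega-class enzyme, read 7.08 in TN, 9.45 in Treg and 8.46 in GFPKO, with a Treg minus GFPKO difference of 0.99 ± 0.12 (limma adjusted p = 1.1e-04). Gstt2 read 7.49, 7.74 and 6.32 (difference 1.42 ± 0.21, limma adjusted p = 4.1e-04). Gstm4 read 5.53, 5.93 and 5.07 (0.87 ± 0.21, limma adjusted p = 0.0158). Gstt3 rose by 0.69 and Mgst2 by 0.59 from TN to Treg. GFPKO minus TN was -0.95 for Gstk1 and -1.17 for Gstt2, both called lower in limma.

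Of 9 other genes of the gelsolin family and actin capping, Gsn, which encodes gelsolin itself, was the only one called. Gsn read 9.52 in TN, 8.32 in Treg and 8.47 in GFPKO, so that it was lower in both groups where Capg was higher (Treg minus TN -1.21 ± 0.24, limma adjusted p = 0.0030). Def6, the closest relative of Swap70, read 10.00 in TN, 9.92 in Treg and 10.08 in GFPKO and was not called. Of the relatives of Plagl1, Plagl2 was higher in Treg than in TN by 0.89 ± 0.15 (limma adjusted p = 6.8e-04) and in GFPKO by 0.77, while Plag1 read at most 2.50. Among 12 other imprinted genes 2 were called higher in Treg than in TN (background 6.54%). They were Igf2r, the receptor for mannose phosphate and IGF2 (1.51 ± 0.12; 1.78 ± 0.14 in GFPKO minus TN), and the cell cycle inhibitor gene Cdkn1c (0.75 ± 0.14). Cdkn1c was also higher in Treg than in GFPKO, by 0.54 ± 0.14 (limma adjusted p = 0.0268).

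The list for T cell egress and homing, the pathway Ecm1 has been tied to, held 6 measured genes. It includes the cytokine receptor genes Il2rb and Il7r, which are not themselves egress or homing receptors. Between Treg and GFPKO 1 gene was called higher in Treg and 2 lower (background 6.88% and 2.55%). Il2rb, a chain of the interleukin 2 receptor, was higher in Treg than in GFPKO (1.26 ± 0.18, limma adjusted p = 3.5e-04). S1pr1, the receptor that guides T cells out of lymph nodes, was lower (-1.19 ± 0.23, limma adjusted p = 0.0039), as was the homing receptor gene Ccr7 (-0.74 ± 0.12, limma adjusted p = 0.0015). Il7r was lower than in TN in both Treg (-2.08 ± 0.24) and GFPKO (-1.62 ± 0.27). Among 11 other genes of folate receptors and folate enzymes, Folr1 and Folr2, the folate-binding relatives of Izumo1r, were not called and read at most 4.06 on average in any group. Ggh, a folate hydrolase, was higher in Treg than in GFPKO by 0.92 ± 0.13 (limma adjusted p = 3.3e-04) and than in TN by 0.50. Slc19a1, the reduced folate carrier, was higher in Treg than in TN by 0.52 ± 0.15 (limma adjusted p = 0.0396).

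Of 11 genes of antigen presentation beside Cd83, 4 were called lower in Treg than in TN (background 3.42%) and 1 higher (background 6.54%). The same genes were called in GFPKO against TN (background 3.02% lower and 2.64% higher). Cd74, H2-Aa, H2-Ab1 and H2-Eb1 were lower, and Cd86 was higher. Among 12 myeloid and dendritic markers, 6 were also called lower in both groups than in TN, and 1 higher in Treg. The part of such cells in the class II values was not tested. H2-Aa read 10.56 in TN, 6.19 in Treg and 5.34 in GFPKO, and H2-Ab1 read 9.42, 5.23 and 4.94. Cd74, the invariant chain, read 7.91, 7.02 and 5.17, and was higher in Treg than in GFPKO by 1.85 ± 0.23 (limma adjusted p = 1.0e-04). Cd86, named after its values were seen, read 5.90, 7.65 and 7.03, in the same order over the groups as Cd83, and was higher in Treg than in GFPKO by 0.62 ± 0.16 (limma adjusted p = 0.0228). Marchf1, the ligase that CD83 counters, read at most 3.20 on average in any group.

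Capg, Swap70 and Cd83 are also made by myeloid or B cells, so the markers of those cells were summed on the linear scale. Of 13 myeloid and dendritic markers 12 were measured, with a summed signal of 1145 to 1458 in TN, 1039 to 1472 in Treg and 705 to 1057 in GFPKO. Of the 12, 6 were called lower and 1 higher in Treg than in TN in limma (background 3.42% and 6.54%). None was called between Treg and GFPKO (background 6.88% higher and 2.55% lower). Itgam and Cd14 were at or below 3.99 in every group, and Itgax, Ly86, Siglech and Adgre1 were so in Treg and GFPKO. Flt3 was below 3.99 in GFPKO only (4.62 in TN, 4.05 in Treg and 3.71 in GFPKO), and the other markers were above it in all groups. Tyrobp read 7.87 in TN, 4.56 in Treg and 4.58 in GFPKO, and Fcer1g read 6.45, 5.21 and 4.82. Csf1r read 5.81, 5.78 and 5.72. Cst3 was the brightest in every group (9.40, 9.70 and 9.19) and so weighs most in the sum. Lyz2 was the one called higher, with 5.58 in TN and 7.02 in Treg, and was 6.57 in GFPKO. Of 9 B cell markers 8 were measured, with a summed signal of 151 to 168 in TN, 308 to 377 in Treg and 131 to 176 in GFPKO. The defining markers Ms4a1 and Cd79a, with Blk, Cr2 and Fcer2a, were at or below 3.99 in all 3 groups. Of the 8, Cd79b and Cd22 were called higher in Treg than in GFPKO (background 6.88%). Cd79b, a chain of the B cell receptor, read 4.36 in TN, 7.63 in Treg and 6.01 in GFPKO (difference 1.61 ± 0.17, limma adjusted p = 2.3e-05). Cd22, a B cell lectin, read 5.89, 5.82 and 4.87 (difference 0.94 ± 0.16, limma adjusted p = 0.0013). Of 8 NK cell markers 7 were measured. Their summed signal was 781 to 907 in TN, 217 to 284 in Treg and 142 to 169 in GFPKO. Klrd1, Prf1 and Eomes were called lower in Treg than in TN (background 3.42%), and Gzmb higher (background 6.54%). Klrd1 read 8.83 in TN, 3.15 in Treg and 3.96 in GFPKO, and Prf1 read 7.92, 5.71 and 5.32. Gzmb read 4.02, 6.66 and 3.83. Between Treg and GFPKO, Gzma and Gzmb were called higher in Treg (background 6.88%) and Klrd1 lower (background 2.55%). Ncr1 and Klrk1 were at or below 3.99 in all groups. The part of such cells in the members' values was not tested.

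**Figure D4:**
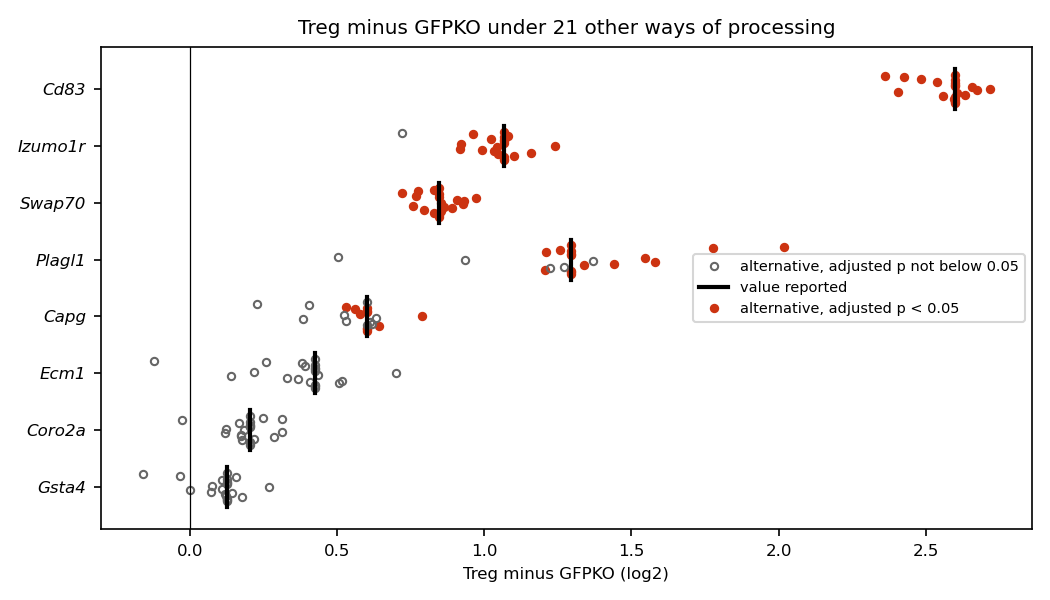
Treg minus GFPKO on the log2 scale (horizontal axis) for each gene as reported (black bar) and under 21 other ways of processing the data (points; filled where the limma adjusted p is under 0.05). Cd83 and Swap70 are filled in all 21, Capg and Plagl1 in part, and Ecm1, Coro2a and Gsta4 in none.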

How the data were processed

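Expression was measured in 11 samples (TN 3, Treg 5, GFPKO 3), grouped by the labels. The authors deposited log2 values (the scale was read from their range) computed by RMA, per the submitters' processing notes. RMA subtracts background, makes the distributions of the arrays equal and summarises the probes of a set, which can shrink changes common to many genes. Version and settings are not given in the sources used here. Of 45101 probe sets, 64 controls, 9160 without an entry in the gene table and 932 with several symbols were left out. No filter on dim genes was used.

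A linear model with a mean per group was fitted to 18193 genes with limma 3.58.1 in R 4.3.3, without covariates. Tests were two-sided, with Benjamini-Hochberg adjustment over all genes and a threshold of 0.05. Differences are given ± SE and levels ± SD. The fit was tested on simulated data. The array number limits precision. The members, lists and tests were chosen with earlier results of these data known. Named are the members, called genes among the 3 largest differences of a list, the 3 genes most like each member, markers, and Foxp3, Il2ra and Ctla4. Motifs were searched on both strands of RefSeq promoter windows. Alternatives left out each array, or changed the samples fitted, probe set choice, dim-gene filter, normalization, moderation, array weights, replicate block, actin covariate or scale.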

Additional observations from a re-analysis of the deposited data

Results flagged for a closer look

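Among the 12 probe sets of the 8 genes, tested for an array far from the other 4 of the Treg group, the dimmer Swap70 probe set was the only one that stood out: Treg replicate 3 read 7.65, against 7.35 to 7.44 on the other Treg arrays. The brightest Swap70 probe set was also highest on that array (8.31) but not as far from the rest. Chance alone gives such a gap in about 1 of 20 groups. Groups of 3 arrays were not tested.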

How the results depend on the processing

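Under 21 alternatives, Cd83 and Swap70 stayed called higher in Treg than in GFPKO in limma in all 21, Izumo1r in 20, Plagl1 in 16 and Capg in 11. Coro2a, Gsta4 and Ecm1 were called in none. The count of genes called there was 5 as reported, 3 to 5 with 1 array left out, and 3 with both GFPKO arrays of high actin difference left out, an alternative chosen after seeing the data in which the lone GFPKO array is assumed to vary like the other groups. In that alternative Ecm1 turned to -0.12 and Gsta4 to -0.16. Gsta4 turned to -0.032 with the actin covariate, and Coro2a to -0.028 with array weights; none of these was called, and the cause was not tested. The median share of 72.0% ran from 70.5% to 76.3% with 1 array left out and was 52.6% on the linear scale, by the construction of that scale. The members' counts for the comparisons with TN stayed at 8. Over all genes, 1716 were called between Treg and GFPKO as reported, 1134 without GFPKO replicate 1, 3421 without GFPKO replicate 3, 6756 with array weights, 1049 with the replicate block, 811 with the actin covariate and 635 without both high-actin arrays. With the replicate number as a block, 4 genes were called higher in Treg than in GFPKO (Capg was lost, limma adjusted p = 0.131) and the median share was 71.2%. Only 3 of 9 pairs of same-numbered arrays had deviations that correlated above 0.1 (range -0.22 to 0.507). These were the 3 pairs of replicate 1 (0.207, 0.157 and 0.507), so the replicate 1 arrays deviated in part alike, and the reason was not tested. No pair of replicate 2 or 3 was above 0.1. The main fit had no block because the titles do not state that the numbers pair the arrays. GFPKO replicate 1 is also the array that read lowest of GFPKO in 7 of 8 genes. Values near the median of all probe sets are limited by signal over background.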
